A study of Mus musculus with 16 samples.

Results

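The loss of Neurog3 from the intestinal epithelium was compared between ileum and duodenum, to ask for which genes the mutation acted differently along the small intestine. All 16 libraries of the study entered the comparison. They came from 8 male mice on a C57BL/6N background and a standard diet, and each mouse gave both tissues. The 4 mutants (NFVCT27, NFVCT38, NFVCT153 and NFVCT190) carried Neurog3 f/f with Villin-CreERT2, a tamoxifen-activated recombinase driven by the villin promoter of the intestinal epithelium. The 4 controls (NF17, NF29, NF32 and NF152) carried the floxed alleles, Neurog3 f/f, without the recombinase. Tissue was collected 18 weeks after tamoxifen, and the labels do not say which part or layers were taken. The groups were therefore mutant ileum, control ileum, mutant duodenum and control duodenum, with 4 libraries each. Since controls had no recombinase, what the transgene does on its own and what Neurog3 loss does cannot be told apart, and the labels do not say separately that controls received tamoxifen.

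The genotype effect in a tissue is the log2 ratio of mutants over controls. The quantity described here is the ileal effect minus the duodenal effect, estimated for each gene with the animal as a block, so that each mouse is set against itself. A positive difference means that the mutant ileum was higher, relative to control ileum, than the mutant duodenum was relative to control duodenum. All 55359 genes of the table were considered and 15882 passed the filter on low counts and were tested. Calls were made at an adjusted p under 0.05, with edgeR's quasi-likelihood test and Benjamini-Hochberg adjustment over all genes tested. Any adjusted p with no tool beside it is from that test. Effects within a tissue come from separate fits on its 8 libraries, so they differ slightly from what the 16-library fit implies.

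Enteroendocrine cells release hormones from the gut lining, and Neurog3 is the transcription factor that starts their fate in crypt progenitors. Their hormones differ along the intestine: proglucagon, peptide YY and neurotensin cells are commoner distally, whereas cells making gastric inhibitory peptide, cholecystokinin and ghrelin are commoner proximally. The duodenum and ileum also differ in their absorptive genes, with sugar, iron and fat handling strongest proximally and bile acid uptake strongest distally. In bulk tissue, fewer cells of a type and less RNA per cell cannot be told apart.

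Total counts ran from 8213889 to 35076714 per library. Neurog3 itself had 0 counts in all 8 mutant libraries, against 71 counts over the 4 control ileal libraries and 98 over the 4 control duodenal ones. Every library matched its labelled tissue: Gata4, Pdx1 and Onecut2 were higher in each duodenal library than in any ileal one, and Slc10a2, Fabp6 and Fgf15 were higher in each ileal library than in any duodenal one. Pancreatic acinar genes took 0.383 to 1.3% of ileal counts over both genotypes. In the duodenum they took 14.1, 2.35, 2.76 and 21.9% of counts in mutants NFVCT27, NFVCT38, NFVCT153 and NFVCT190, against 17.4, 9.36, 10.9 and 7.92% in controls NF17, NF29, NF32 and NF152. With an acinar score as a covariate, 14 of the 16 calls described below remained, and B4galt5 and Mlxipl lost theirs. Per-library values below keep these orders of animals, 4 mutants and then 4 controls, and are counts scaled to a common library size (CPM).

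The genotype effect differed between the tissues for 16 genes, 0.101% of those tested. It was more positive in the ileum for 12 genes (0.0756%) and more negative for 4 (0.0252%). At an unadjusted p under 0.05 there were 844 genes (5.31%), 467 more positive in ileum (2.94%) and 377 more negative (2.37%). With no difference in any gene, a threshold of 0.05 would pass nearly as large a share. By comparison, the genotype effect itself was called for 490 of 14951 genes in the ileum (3.28%), 264 higher (1.77%) and 226 lower (1.51%) in mutants. In the duodenum it was called for 58 of 14703 (0.394%), 14 higher (0.0952%) and 44 lower (0.299%). The median difference over all genes tested was 0.00936 on the log2 scale, and the median 95% interval of a gene's difference was 1.03 log2 units wide. The per-animal ileum minus duodenum values of mutants and controls did not overlap for 583 genes (3.67%), the 16 called genes among them. With so few animals a group, chance alone also gives such genes. The number of calls moved between 6 and 22 when 1 animal was left out in turn, lowest without mutant NFVCT38 or control NF32 and highest without control NF29. All 16 genes kept their sign under each of the 18 other settings tried. Among these settings, DESeq2 called 72 of the 15882 genes, 46 more positive in ileum and 26 more negative, and limma-voom called 15.

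**Figure D1:**
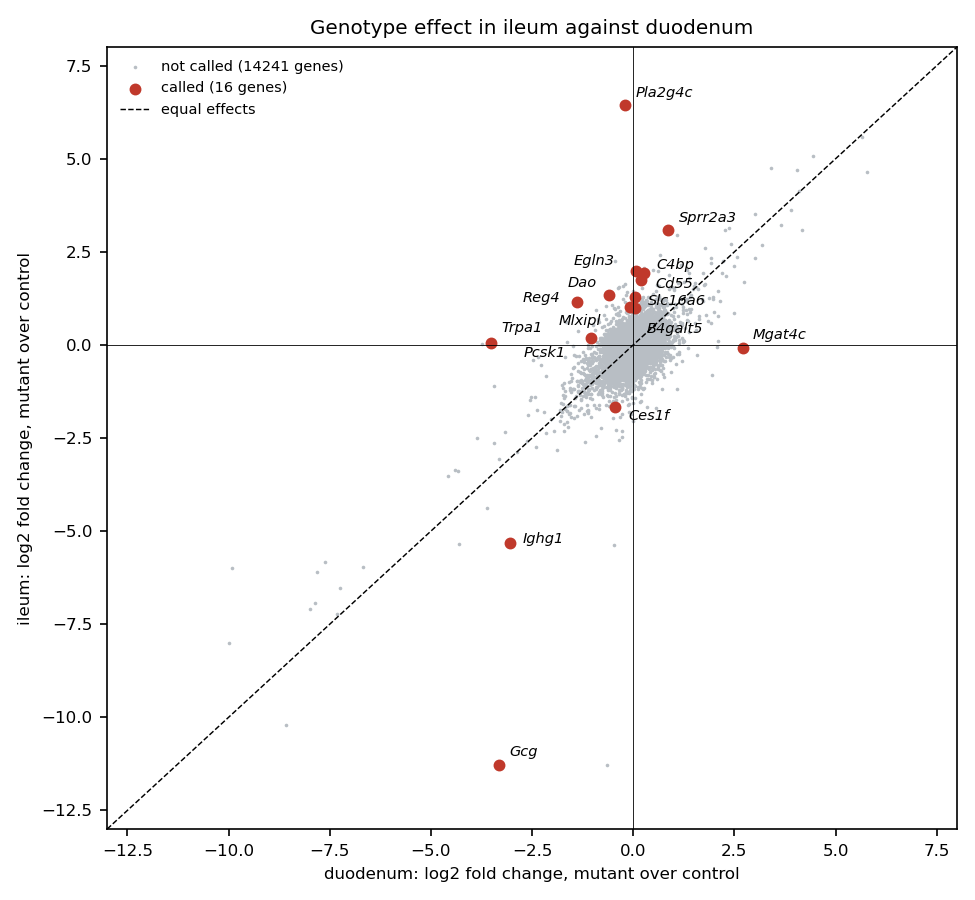
Genotype effect in the ileum (vertical axis, log2 fold change of mutant over control) against that in the duodenum (horizontal axis), 1 point per gene tested in both tissues. The 16 called genes are red and the dashed line marks equal effects: Pla2g4c, at 6.43 in ileum and -0.21 in duodenum, lies far above it, and Mgat4c, at -0.08 and 2.70, far to its right. Values are fitted, and those of genes with almost no counts in a group, such as Gcg in mutant ileum, depend on the prior count.

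Called genes fell into 3 groups by the tissue in which the genotype effect was called, and a missing call does not show that genotypes were alike. Mutants and controls were apart without a call for Gcg, Dao and Pcsk1 in duodenum, Ighg1 in ileum and Reg4 in both tissues. Pla2g4c, Cd55, Egln3, Slc16a6, C4bp, Sprr2a3, B4galt5 and Mlxipl were called higher in mutant ileum and were not called in duodenum, Dao was likewise, and Ces1f and Gcg were called lower in mutant ileum and not called in duodenum. Trpa1 was called lower, and Mgat4c higher, in mutant duodenum and neither was called in ileum. Reg4, Pcsk1 and Ighg1 were called in neither tissue alone, and only the difference between the tissues passed the test.

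**Figure D2:**
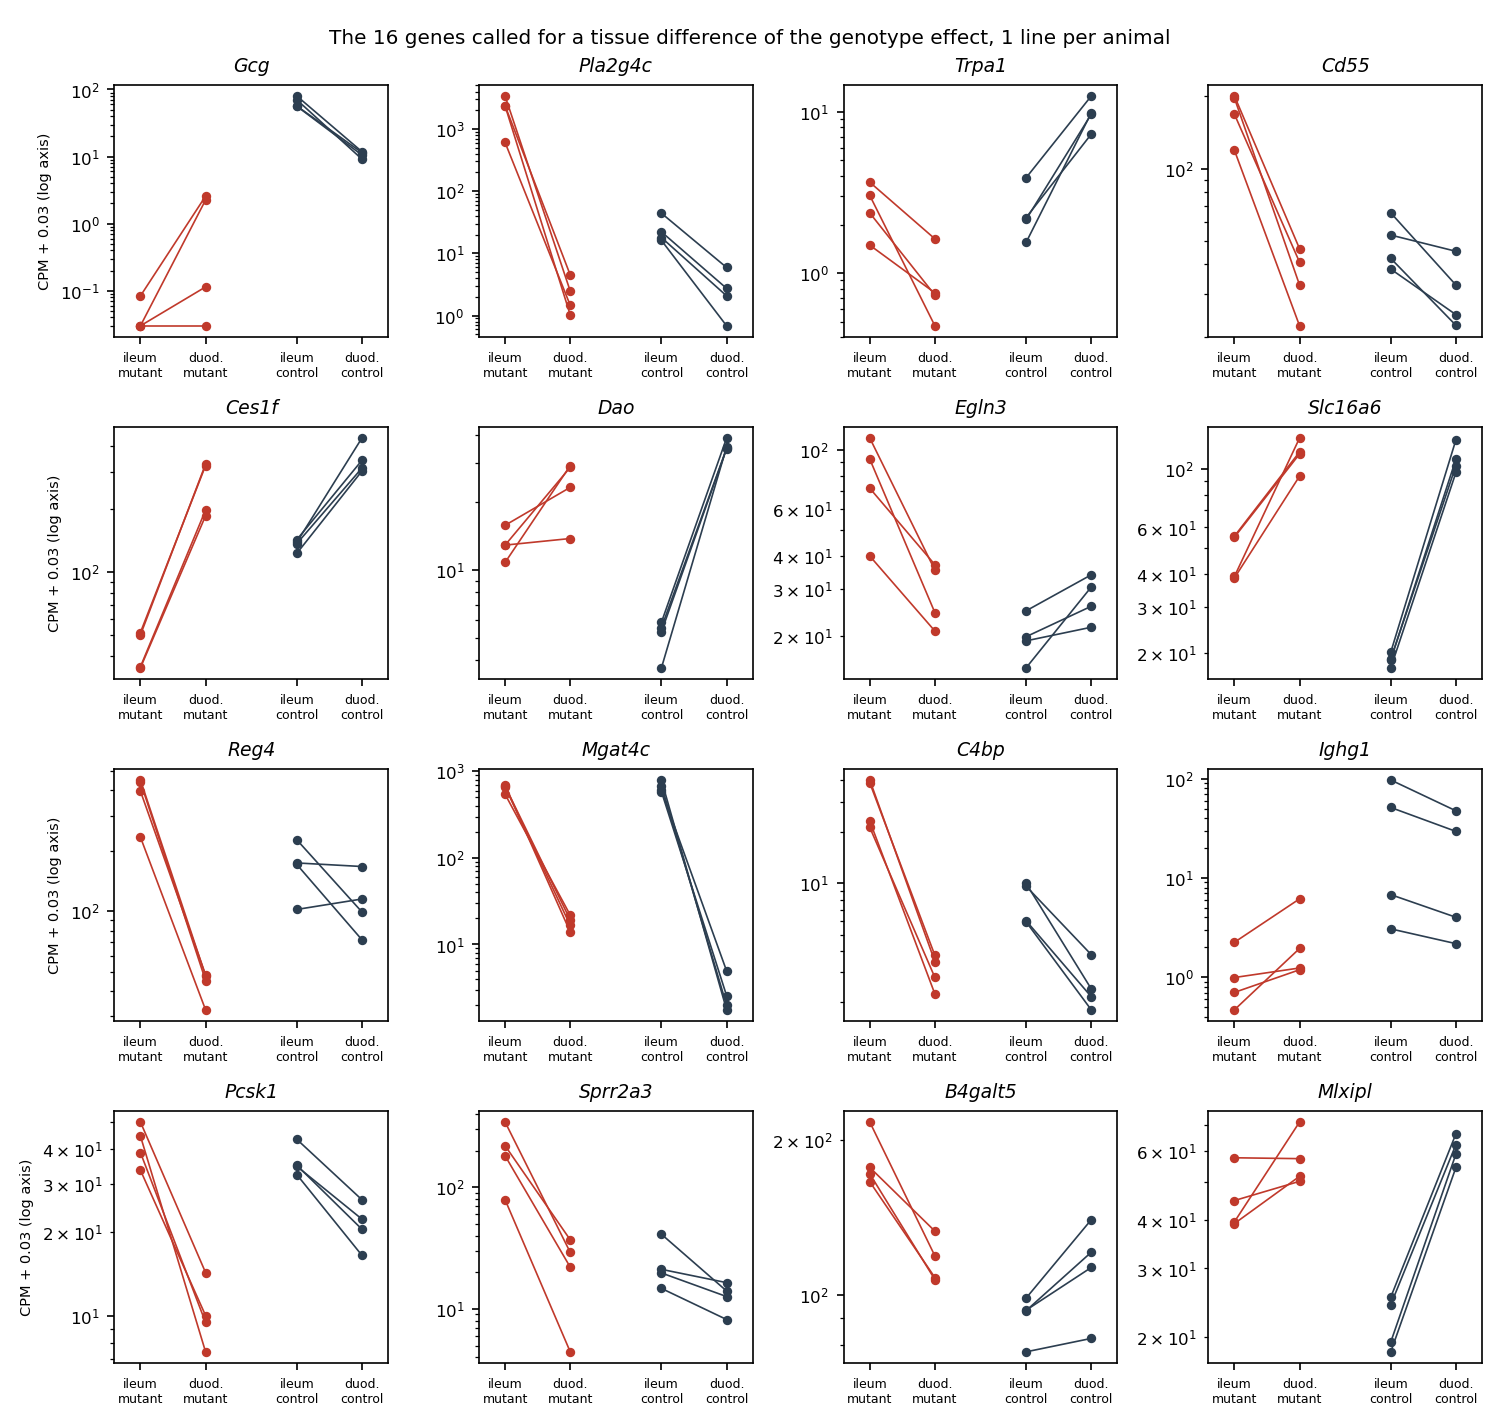
CPM of the 16 called genes (log axis, 0.03 added) in ileum and duodenum, mutants in red on the left and controls in dark blue on the right of each panel, with 1 line per animal joining its 2 tissues. Lines slope differently in the genotypes in every panel: for Trpa1 they fall towards the duodenum in mutants and rise in controls.

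Among hormone genes, Gcg (ENSMUSG00000000394), which codes for proglucagon, the precursor of glucagon-like peptides of L cells, was called. Its CPM in ileum was 0, 0, 0 and 0.0536 in mutants, against 79.9, 56.7, 56.3 and 70.2 in controls. In duodenum it was 0.084, 2.22, 0 and 2.54 CPM in mutants, against 11.8, 11.4, 10.5 and 9.12 CPM in controls. The genotypes did not overlap in either tissue, and in duodenum mutants NFVCT38 and NFVCT190 stood above the other two. Mutant ileum held 1 count against 5134 in control ileum, which is 0.0276% of the control level (exact binomial 95% interval 0.000698 to 0.154%, counting error only). Mutant duodenum held 62 counts against 549, which is 8.13% of the control level (6.15 to 10.6%). The difference was called with an adjusted p of 2.97e-05, and with the highest adjusted p at 0.00385 when each animal was left out. Without the animal block, or with limma-voom, it was not called (highest adjusted p = 0.288).

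Gcg in mutant duodenum was highest in the 2 libraries, NFVCT38 and NFVCT190, that were also highest among mutants for islet genes. Ins2, a gene for insulin, had 15.1, 21, 0.116 and 50.2 CPM in duodenum of mutants, against 13.9, 0.935, 15.4 and 1.78 CPM in controls. Ppy, for pancreatic polypeptide, had 0.84, 4.2, 0 and 3.64 CPM in mutants, against 0.816, 0.467, 0.742 and 0.162 CPM in controls. Mutant NFVCT153, the library nearly free of Ins2, Ppy, Ins1 and Iapp, was also the one with no Gcg count. Mutant NFVCT27, however, had 15.1 CPM of Ins2 and only 1 Gcg count (0.084 CPM). Between NFVCT38 and NFVCT190, Ins2 rose from 21 to 50.2 CPM while Gcg was 2.22 and 2.54 CPM. Pyy, the gene for peptide YY of L cells, had 0 counts in ileum of mutants, against 23.2, 14.9, 19.4 and 20.3 CPM in controls, and was at least 355-fold lower against a floor of 3 counts over the group. In duodenum Pyy had 0.588, 1.63, 0.029 and 2.21 CPM in mutants, against 0.571, 2.9, 0.0928 and 2.48 CPM in controls. Among mutants it too was lowest in NFVCT153, but among controls it was highest in NF29, whose Ins2 was the lowest. The duodenal groups overlapped for Pyy, and its difference between tissues was not called (adjusted p = 0.416). The part of pancreatic RNA in these counts was not tested. With a score of the 4 islet genes as a covariate, 14 of the 16 calls remained, Gcg among them.

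**Figure D3:**
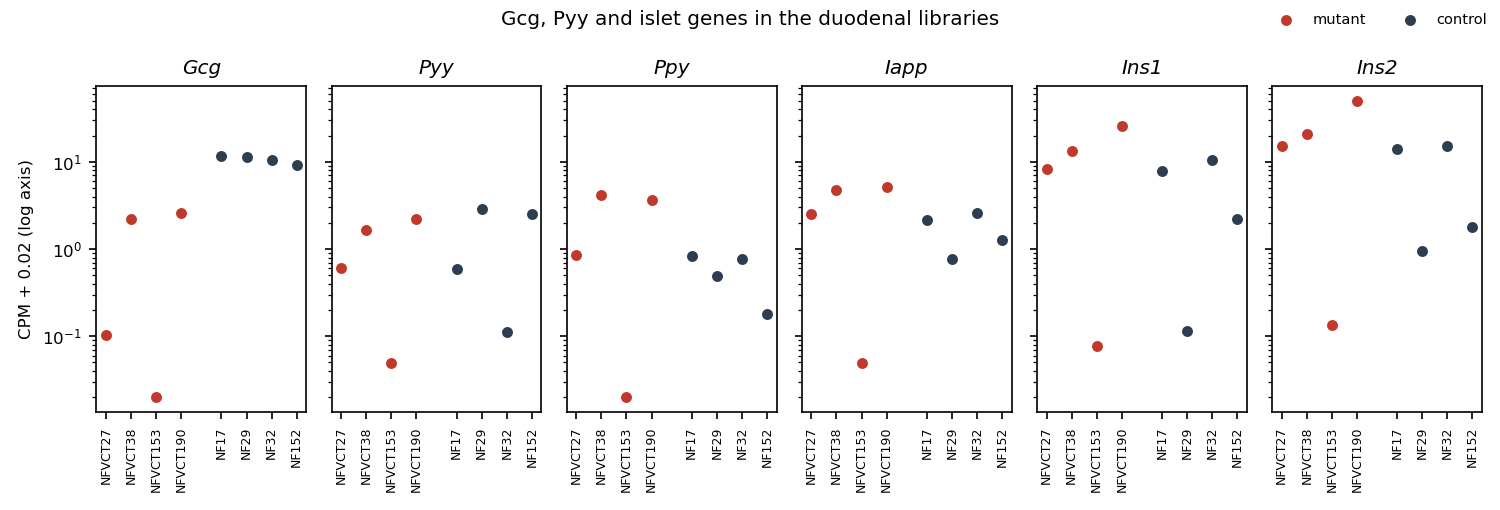
CPM of Gcg, Pyy and 4 islet genes in the 8 duodenal libraries (log axis, 0.02 added), mutants in red on the left of each panel and controls in dark blue on the right. Mutant NFVCT153 is lowest, or level with the lowest, among mutants in all 6 panels, and mutant NFVCT190 is highest among mutants in 5 of them.

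Of 12 tested hormone genes, Gcg alone was called by edgeR. At an unadjusted p under 0.05, 2 were more positive and 4 more negative in ileum, where 2.94% and 2.37% of all genes were. Of these 4, Gcg, Pyy and Ppy had 1, 0 and 1 counts over the mutant ileal libraries. DESeq2 called Gcg and Pyy. In both tissues Gip, Cck, Ghrl and Tph1 were nearly absent from mutants. Gip, for gastric inhibitory peptide, had 0 counts in mutant ileum against 776 in control ileum (at least 183-fold lower), and kept 0.256% (0.128 to 0.459%) of the control level in duodenum. Tph1, for the enzyme that starts serotonin synthesis, kept 1.40% (0.559 to 2.89%) in ileum and 0.395% (0.159 to 0.817%) in duodenum. Sst, for somatostatin, kept more of its level in ileum. It had 3.86, 3.27, 3.6 and 6.43 CPM in ileum of mutants, against 14.4, 10.1, 9.81 and 13.4 CPM in controls. Duodenal values were 5.46, 6.47, 4.78 and 5.96 CPM in mutants, against 34.7, 34.6, 28.6 and 32.9 CPM in controls. Its genotypes did not overlap in either tissue, and its effect was -1.48 in ileum and -2.54 in duodenum, a difference of 1.02 (SE 0.24) that was not called (adjusted p = 0.269). Tac1, for tachykinins, had the same order, with effects of -1.39 in ileum and -2.54 in duodenum (difference 1.25, SE 0.38, adjusted p = 0.562). Vip, a neuropeptide of enteric neurons, was lower in mutant ileum (-0.81, adjusted p = 0.0131) and at -0.04 in duodenum, a difference of -0.82 (SE 0.22) that was not called.

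No enteroendocrine transcription factor was called among 13 tested, and neither DESeq2 nor limma-voom called any. At an unadjusted p under 0.05, 2 were more positive and 1 more negative in ileum, where 2.94% and 2.37% of all genes were. The more negative one, Nkx2-2, had 0 counts in mutant ileum. Neurod1, which follows Neurog3 in the endocrine programme, kept 1.47% (0.176 to 5.37%) of its control level in ileum and 0.324% (0.00817 to 1.82%) in duodenum. Rfx6, needed for several enteroendocrine types, kept 7.65% (2.75 to 17.2%) in ileum and 3.47% (0.923 to 9.22%) in duodenum, and these intervals overlap. Neither granin had a called difference, and their differences had opposite signs. Chgb, a granule protein, had effects of -5.96 in ileum and -6.67 in duodenum (adjusted p = 3.86e-10 and 5.09e-06), a difference of 0.73 (SE 0.36, adjusted p = 0.959). Chga, the other main granin, fell by 4.37 in ileum, and its effect in duodenum was -3.61 without passing the test (adjusted p = 0.0919). Its difference was -0.71 (SE 0.48, adjusted p = 0.994). In duodenum Chga had 4.79, 7.81, 1.42 and 14.1 CPM in mutants, against 89, 67.9, 67 and 98.4 CPM in controls, and among mutants it was lowest in NFVCT153 and highest in NFVCT190, as Ins2 was. The part of islet RNA in it was not tested.

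Other called genes with known endocrine roles were Trpa1, Pcsk1 and Reg4, and each had an ileal effect above 0 and a duodenal effect below 0. Trpa1 (ENSMUSG00000032769) codes for an irritant-sensing cation channel of enterochromaffin cells and of sensory neurons. In ileum it had 3.63, 2.33, 1.46 and 3 CPM in mutants, against 2.12, 1.52, 2.18 and 3.87 CPM in controls. The duodenal libraries gave 1.6, 0.7, 0.724 and 0.441 CPM in mutants, against 9.63, 9.82, 7.24 and 12.5 CPM in controls. The ileal groups overlapped, while all mutant duodena were below all control duodena. Its effect was 0.06 in ileum (adjusted p = 0.965) and -3.52 in duodenum (adjusted p = 0.000411). The difference of 3.59 (SE 0.38, adjusted p = 0.00203) was called under each of the 18 other settings, and the tissue gap of Trpa1, ileum minus duodenum, was 1.55 in mutants (SE 0.30) and -2.04 in controls (SE 0.24).

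Pcsk1 (ENSMUSG00000021587) codes for prohormone convertase 1/3, which cuts proglucagon and other prohormones. It had 33.5, 38.8, 50 and 44.5 CPM in ileum of mutants, against 34.6, 34.9, 32.3 and 43.3 CPM in controls. Its duodenal levels were 10, 9.44, 14.3 and 7.39 CPM in mutants, against 22.3, 20.5, 16.5 and 26.2 CPM in controls. The ileal groups overlapped and the duodenal groups did not. The duodenal effect was -1.05 (adjusted p = 0.0603), and the difference between tissues was 1.26 (SE 0.19, adjusted p = 0.022). That call was lost when NFVCT27, NFVCT38, NF17, NF32 or NF152 was left out (highest adjusted p = 0.119, difference 1.08 to 1.34). Pcsk1 was the only one of 23 tested granule and secretory genes to be called. At an unadjusted p under 0.05, 5 of the 23 were more positive in ileum (2.94% of all genes were) and 0 more negative. Slc18a1, a vesicular monoamine transporter, had a difference of 0.87 (SE 0.22, adjusted p = 0.346).

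Reg4 (ENSMUSG00000027876) codes for a secreted lectin of the Reg family made by secretory cells of the gut. It had 442, 451, 397 and 234 CPM in ileum of mutants, against 227, 102, 171 and 174 CPM in controls. In duodenum it had 45.1, 47.7, 48.1 and 32.2 CPM in mutants, against 99.1, 115, 72 and 167 CPM in controls. Mutants were above all controls in ileum and below all controls in duodenum. Neither tissue passed alone, with effects of 1.16 in ileum (adjusted p = 0.0756) and -1.39 in duodenum (adjusted p = 0.0508). The difference was 2.53 (SE 0.32, adjusted p = 0.0116). Leaving out any one mutant lost the call (highest adjusted p = 0.0636) and left the difference between 2.28 and 2.76.

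The largest positive difference belonged to Pla2g4c (ENSMUSG00000033847), which codes for a cytosolic phospholipase A2 that frees fatty acids from membrane phospholipids. In ileum it had 3390, 2350, 2360 and 606 CPM in mutants, against 16.1, 44.1, 17.9 and 22.1 CPM in controls. Duodenal values were 2.44, 0.991, 4.46 and 1.43 CPM in mutants, against 0.653, 5.89, 2.04 and 2.7 CPM in controls. Every mutant ileum was more than 10 times above every control ileum, and the duodenal groups overlapped. The ileal effect was 6.43 (SE 0.73, adjusted p = 0.00901), the duodenal effect -0.21 (adjusted p = 0.981) and the difference 6.58 (SE 0.55, adjusted p = 0.00163). It was called under each of the 18 other settings.

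Both complement inhibitors among the called genes had the same pattern. Cd55 (ENSMUSG00000026399), the decay-accelerating factor of the cell surface, had 200, 196, 168 and 119 CPM in ileum of mutants, against 42.3, 52.9, 38.2 and 65.4 CPM in controls. The duodenal libraries gave 46.4, 32.8, 40.8 and 22.2 CPM in mutants, against 22.3, 45.3, 24.7 and 32.8 CPM in controls. The groups were apart in ileum and overlapped in duodenum, with a difference of 1.59 (SE 0.19, adjusted p = 0.00801) that was called with every animal left out in turn but not without the animal block (adjusted p = 0.288). C4bp (ENSMUSG00000026405), the C4b-binding protein, had 21.2, 40.2, 38.7 and 23.1 CPM in ileum of mutants, against 9.93, 5.9, 5.99 and 9.56 CPM in controls. Its duodenal levels were 2.77, 3.44, 3.74 and 2.21 CPM in mutants, against 2.37, 1.78, 2.13 and 3.78 CPM in controls. The C4bp groups were likewise apart in ileum only, and the difference was 1.68 (SE 0.24, adjusted p = 0.0123). Without NFVCT38, NF32 or NF152 it was not called (highest adjusted p = 0.0998).

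Sprr2a3 (ENSMUSG00000074445), of the small proline-rich proteins of the epithelial barrier, had 343, 181, 219 and 78.8 CPM in ileum of mutants, against 19.7, 41, 21.1 and 14.7 CPM in controls. In duodenum it had 29.1, 22, 36.9 and 4.41 CPM in mutants, against 12.6, 14, 16.4 and 8.15 CPM in controls. Mutants were above controls in ileum and overlapped them in duodenum, and the difference was 2.41 (SE 0.34, adjusted p = 0.0252). Leaving out NFVCT27, NFVCT38, NF17, NF32 or NF152 lost this call (highest adjusted p = 0.137), and the gene has near-identical copies among which reads may have been split. With Pla2g4c it was one of 2 called among 21 tested genes of type 2 and barrier responses, where the median difference was 0.44 against 0.00936 over all genes. That list had 18 genes above 0 and 3 below. At an unadjusted p under 0.05, 4 were more positive and 1 more negative, where 2.94% and 2.37% of all genes were.

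Egln3 (ENSMUSG00000035105), a prolyl hydroxylase that marks hypoxia-inducible factors, had 111, 71.9, 92.5 and 40 CPM in ileum of mutants, against 15.2, 24.9, 19.9 and 19.2 CPM in controls. Duodenal values were 35.4, 37.1, 24.5 and 20.9 CPM in mutants, against 30.6, 34, 25.9 and 21.6 CPM in controls. The groups were apart in ileum and overlapped in duodenum. The difference was 1.87 (SE 0.25, adjusted p = 0.0116), not called without NFVCT27 or NF32 (highest adjusted p = 0.0645). Slc16a6 (ENSMUSG00000041920), of the monocarboxylate transporter family, had 39.1, 55.6, 55.1 and 38.6 CPM in ileum of mutants, against 17.6, 20.2, 18.9 and 19 CPM in controls. The duodenal libraries gave 131, 116, 114 and 93.9 CPM in mutants, against 97, 129, 109 and 103 CPM in controls. Mutant ileum was thus above control ileum and still below every duodenum, with a difference of 1.24 (SE 0.17, adjusted p = 0.0116). The Slc16a6 call was lost without NFVCT38, NF17 or NF32 (highest adjusted p = 0.0659).

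Dao (ENSMUSG00000042096), D-amino acid oxidase, had 10.8, 15.8, 12.9 and 12.9 CPM in ileum of mutants, against 5.85, 3.66, 5.54 and 5.31 CPM in controls. Its duodenal levels were 29.1, 23.3, 28.6 and 13.8 CPM in mutants, against 38.6, 35.2, 34.7 and 34.6 CPM in controls. Mutants were above all controls in ileum and below all controls in duodenum. The ileal effect was 1.34 (adjusted p = 0.000865), the duodenal effect -0.59 (adjusted p = 0.333) and the difference 2.01 (SE 0.27, adjusted p = 0.0116). The tissue gap of Dao, ileum minus duodenum, was -0.80 in mutants (SE 0.19) and -2.81 in controls (SE 0.20). Without NFVCT38, NF17 or NF32 the Dao call was lost (highest adjusted p = 0.0655).

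B4galt5 (ENSMUSG00000017929), a galactosyltransferase of glycolipid synthesis, had 217, 172, 177 and 166 CPM in ileum of mutants, against 93.1, 93.3, 98.5 and 77.4 CPM in controls. In duodenum it had 119, 107, 133 and 108 CPM in mutants, against 121, 113, 140 and 82.2 CPM in controls. The groups were apart in ileum and overlapped in duodenum, and the difference was 0.95 (SE 0.15, adjusted p = 0.0318). It was not called without NFVCT27, NFVCT38, NF17, NF29 or NF32 (highest adjusted p = 0.175). Summed smooth muscle markers, 14 genes of which none was at 0 in all libraries, were 6290 to 8320 CPM in mutant ileum, against 3930 to 5470 in control ileum. In duodenum they were 1840 to 4070 CPM in mutants, against 1600 to 3280 in controls. With a smooth muscle score as a covariate, 13 of the 16 calls remained, and Pcsk1, Sprr2a3 and Mlxipl lost theirs.

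Carbohydrate genes leaned the same way as a list. Mlxipl (ENSMUSG00000005373) codes for the carbohydrate-response element binding protein, a transcription factor activated by sugar metabolites in liver and gut. It had 44.8, 39.1, 57.7 and 39.5 CPM in ileum of mutants, against 25.3, 18.3, 24.2 and 19.4 CPM in controls. Duodenal values were 50.2, 51.7, 57.4 and 71.3 CPM in mutants, against 66.5, 54.5, 62.4 and 59 CPM in controls. Mutant ileum was above all control ilea, and the duodenal groups overlapped. The ileal effect was 1.03 (SE 0.16, adjusted p = 0.00227), the duodenal effect -0.08 (SE 0.13, adjusted p = 0.947) and the difference 1.13 (SE 0.18, adjusted p = 0.0374). The tissue gap of Mlxipl, ileum minus duodenum, was -0.35 in mutants (SE 0.13) and -1.48 in controls (SE 0.13). Of the 8 fits that leave out 1 animal, the Mlxipl call held only without NFVCT190, with the highest adjusted p at 0.203 and the difference between 1.01 and 1.28. Mlxipl was also among 16 tested genes of fatty acid synthesis, where 8 were above 0, 8 below and the median difference was -0.00348. In that list Me1 had a difference of 2.58 (SE 0.50) and Scd2 one of -1.25 (SE 0.25), neither called by edgeR.

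All 15 tested genes of carbohydrate digestion and uptake had a positive difference, with a median of 0.79 against 0.00936 over all genes tested. This list, which includes Mlxipl, and the other lists were written with earlier results of these data known. The lean of a list is therefore a description and no independent test. At an unadjusted p under 0.05, 7 were more positive in ileum and 0 more negative, where 2.94% of all genes were more positive. Within the tissues, 10 of the 15 were called higher in mutant ileum (1.77% of genes were) and 0 were called in duodenum by edgeR. The list's median effect was 0.70 in ileum and -0.02 in duodenum. Sis, sucrase-isomaltase of the brush border, had 17000, 20700, 17700 and 21000 CPM in ileum of mutants, against 5460, 3680, 4820 and 5910 CPM in controls. The duodenal libraries gave 8270, 7350, 10400 and 7600 CPM in mutants, against 6350, 8040, 6500 and 7340 CPM in controls. Every mutant ileum exceeded every duodenum for Sis, and every control ileum was below them. Its difference of 1.71 (SE 0.31) missed the threshold (adjusted p = 0.0836), and was called by limma-voom and by DESeq2.

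Mgam, maltase-glucoamylase, had 8880, 12200, 11100 and 11800 CPM in ileum of mutants, against 5720, 4690, 5840 and 4660 CPM in controls. Its duodenal levels were 8600, 7880, 9900 and 9200 CPM in mutants, against 9700, 10500, 9930 and 8300 CPM in controls. The groups were apart in ileum and overlapped in duodenum, with a difference of 1.18 (SE 0.27, adjusted p = 0.245). Slc2a2, the basolateral hexose transporter GLUT2, had effects of 1.35 in ileum and -0.02 in duodenum (difference 1.44, SE 0.37, adjusted p = 0.398). DESeq2 called Mlxipl, Sis, Mgam and Slc2a2 of this list, all more positive, where it called 46 of all 15882 genes more positive. The list's median kept its sign under all 18 other settings and was lowest, at 0.46, with the islet score as a covariate. Gluconeogenesis genes had a median difference of 0.57 over 7 tested, 6 above 0. None was called by edgeR, 3 were more positive at an unadjusted p under 0.05 (2.94% of all genes were) and DESeq2 called Fbp1. Fbp1, fructose bisphosphatase, had 34.5, 48, 33.5 and 46.4 CPM in ileum of mutants, against 16.2, 7.68, 9.99 and 17 CPM in controls, and the groups overlapped in duodenum (difference 1.89, SE 0.37, adjusted p = 0.189).

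Mlxipl protein binds carbohydrate response elements, which hold E-box motifs of the CACGTG type, so the promoters of the carbohydrate genes were searched for CACGTG, a palindrome that reads alike on both strands. The search of these genes left out a chromosome that the search of all promoters kept. RefSeq promoters of build GRCm38.p6, 250 bases upstream of a start site, were used for 13 of the 15 genes, with 14 start sites. The motif was in 4 of these 14, against 1978 of all 32851 promoters (6.02%). The 4 are printed because Mlxipl itself and Mgam are among them. They lie at chr5:135089640-135089889 for the second Mlxipl start site, chr6:40628581-40628830 for Mgam, chr5:33103969-33104218 for Slc5a1 and chr5:30921309-30921558 for Khk, all on the + strand, and the motif is in capitals.
Mlxipl: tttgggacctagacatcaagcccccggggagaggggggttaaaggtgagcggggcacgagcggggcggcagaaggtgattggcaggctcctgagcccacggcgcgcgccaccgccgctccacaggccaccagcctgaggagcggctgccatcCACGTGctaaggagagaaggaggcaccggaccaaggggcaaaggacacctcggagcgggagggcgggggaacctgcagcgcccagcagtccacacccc
Mgam: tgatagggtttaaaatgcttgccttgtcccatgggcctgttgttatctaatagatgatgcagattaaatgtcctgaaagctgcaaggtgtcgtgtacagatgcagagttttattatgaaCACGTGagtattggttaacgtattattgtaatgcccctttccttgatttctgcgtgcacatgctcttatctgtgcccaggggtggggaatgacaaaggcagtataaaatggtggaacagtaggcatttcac
Slc5a1: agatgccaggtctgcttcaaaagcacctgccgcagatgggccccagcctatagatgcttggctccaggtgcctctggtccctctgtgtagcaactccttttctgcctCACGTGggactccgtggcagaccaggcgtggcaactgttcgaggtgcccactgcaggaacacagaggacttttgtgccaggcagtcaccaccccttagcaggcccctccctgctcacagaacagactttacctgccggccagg
Khk: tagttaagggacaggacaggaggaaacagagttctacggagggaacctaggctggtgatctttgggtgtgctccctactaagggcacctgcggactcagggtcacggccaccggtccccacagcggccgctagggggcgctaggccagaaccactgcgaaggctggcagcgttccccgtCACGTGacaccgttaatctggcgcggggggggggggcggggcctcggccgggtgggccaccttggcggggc
Slc5a1, the sodium-glucose cotransporter, had effects of 0.96 in ileum and 0.24 in duodenum, and Khk, ketohexokinase, 0.57 and 0.20. Sis, with the largest difference of the list, had no CACGTG in its 250 bases. A match is a string of letters in a window, each of the 4 promoters held 1 CACGTG, and no binding was measured. Any part of Mlxipl in the values of this list was not tested.

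**Figure D4:**
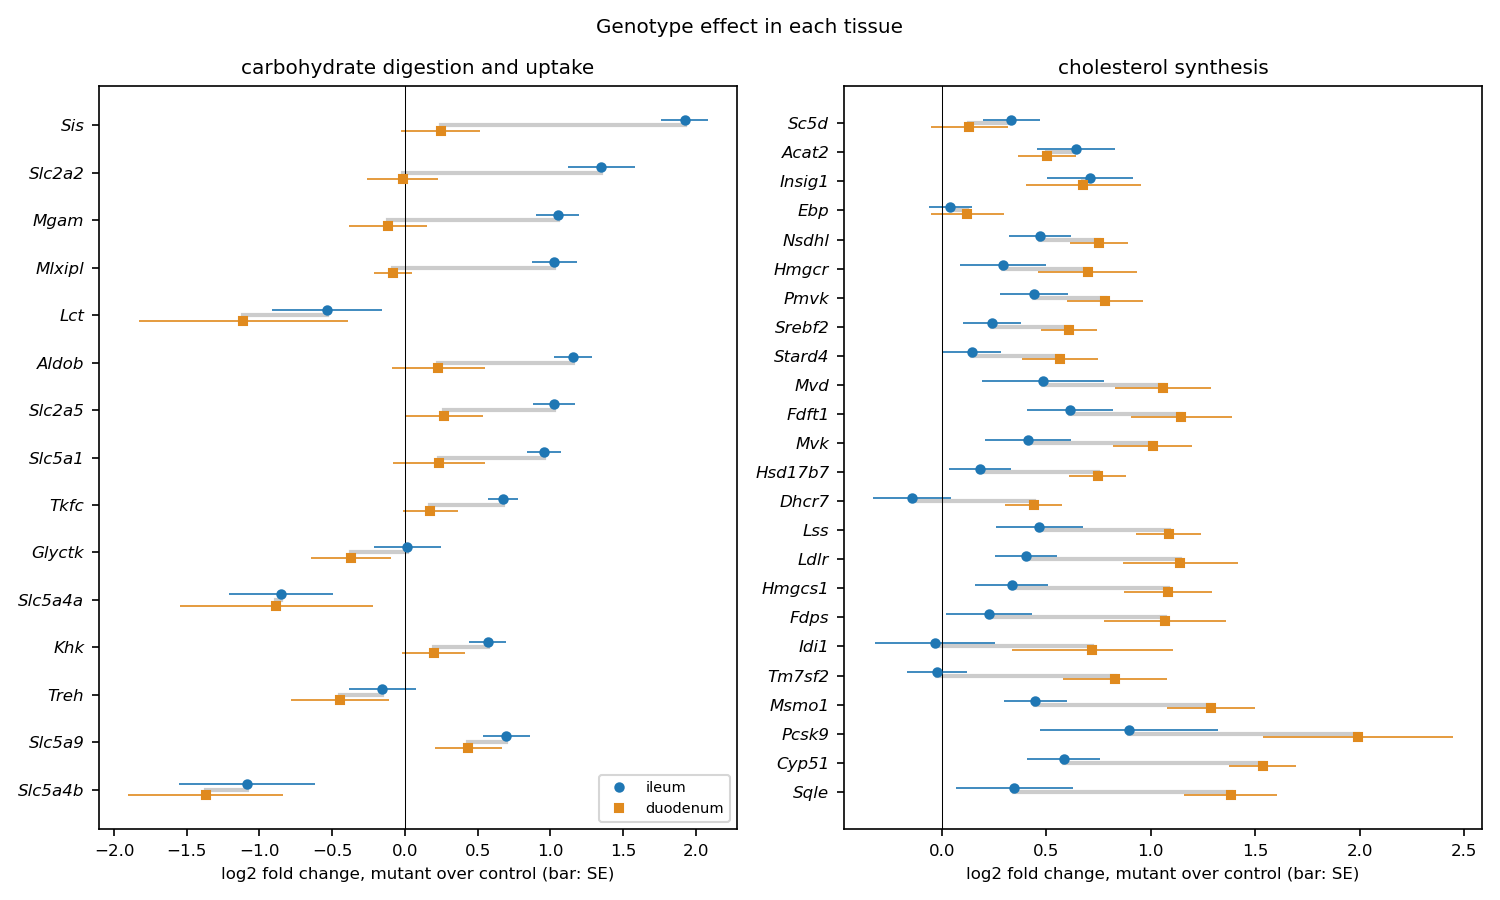
Genotype effect (log2 fold change of mutant over control, with SE) in ileum (blue circles) and duodenum (orange squares) for 15 carbohydrate genes and all but 1 of the 25 tested cholesterol synthesis genes, with a grey bar joining the 2 tissues of a gene. Ileal points lie to the right of duodenal ones for all 15 carbohydrate genes and to the left for most cholesterol genes.

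Cholesterol synthesis leaned the other way. This pathway, driven by SREBP2, makes sterols from acetyl-CoA in every cell and is active in the intestinal epithelium. Of 25 genes tested, 22 had a difference below 0 and 3 above, with a median of -0.56 that stayed between -0.59 and -0.40 under the 18 other settings. None was called by edgeR, while 12 were more negative and 0 more positive at an unadjusted p under 0.05 (2.37% of all genes were more negative). DESeq2 called 3, all more negative, Sqle and Cyp51 included, where it called 26 of all 15882 genes more negative. Within the tissues, 0 of the 25 were called in ileum and 6 were called higher in mutant duodenum, where 0.0952% of all genes were. The median effect was 0.35 in ileum and 0.78 in duodenum.

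Sqle, squalene epoxidase, had 196, 187, 299 and 202 CPM in ileum of mutants, against 148, 269, 119 and 150 CPM in controls. In duodenum it had 60.6, 72.5, 124 and 80.5 CPM in mutants, against 29.4, 41, 33 and 25.8 CPM in controls. The ileal groups overlapped and the duodenal groups did not, with effects of 0.35 and 1.38 and a difference of -0.95 (SE 0.19, adjusted p = 0.125). Cyp51, lanosterol demethylase, had effects of 0.58 in ileum and 1.54 in duodenum (difference -0.89, SE 0.21, adjusted p = 0.269).

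Besides Gcg and Ighg1, the genes called with a more negative effect in ileum were Mgat4c and Ces1f. Mgat4c (ENSMUSG00000019888), of a glycosyltransferase family that branches N-glycans, was chiefly an ileal gene. In ileum it had 661, 673, 543 and 689 CPM in mutants, against 583, 685, 603 and 794 CPM in controls. Duodenal values were 16.6, 19.2, 21.8 and 13.9 CPM in mutants, against 2.53, 1.96, 4.92 and 1.73 CPM in controls. The ileal groups overlapped and the duodenal ones were apart. Its effect was -0.08 in ileum (adjusted p = 0.837) and 2.70 in duodenum (adjusted p = 0.00287), a difference of -2.81 (SE 0.36, adjusted p = 0.0116). The tissue gap of Mgat4c was 5.17 in mutants (SE 0.27) and 7.98 in controls (SE 0.32), so mutant duodenum was nearer to ileum and still far below it. The call was lost without NFVCT27, NFVCT38 or NF17 (highest adjusted p = 0.0636).

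Ces1f (ENSMUSG00000031725), a carboxylesterase of lipid and drug metabolism, had 50.2, 51.6, 35 and 35.4 CPM in ileum of mutants, against 143, 139, 123 and 137 CPM in controls. The duodenal libraries gave 328, 323, 186 and 198 CPM in mutants, against 342, 437, 304 and 314 CPM in controls. Ileal groups were apart and duodenal groups overlapped, with effects of -1.68 (adjusted p = 6.61e-06) and -0.44 (adjusted p = 0.625) and a difference of -1.21 (SE 0.16, adjusted p = 0.0109). Without NFVCT27, NFVCT38, NF17 or NF32 it was not called (highest adjusted p = 0.0636). Of the 30 tested xenobiotic genes, 10 including Ces1f were below 0 and 20 above, and the median difference was 0.34, which turned to -0.0824 with the islet score as a covariate. DESeq2 called 2 of them more negative, Ces1f and Ces1g, and 1 more positive, Ces2c. Ces2c, another carboxylesterase, had effects of 0.36 in ileum and -1.35 in duodenum (difference 1.73, SE 0.31, adjusted p = 0.101).

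Ighg1 (ENSMUSG00000076614), the constant region of immunoglobulin G1, was outside the rule for naming genes and is given because it completes the 16 calls. It had 2.22, 0.44, 0.674 and 0.964 CPM in ileum of mutants, against 51.2, 3.04, 96.9 and 6.76 CPM in controls. Its duodenal levels were 6.13, 1.92, 1.16 and 1.21 CPM in mutants, against 29.4, 2.15, 47.4 and 3.99 CPM in controls. Controls NF17 and NF32 were high in both tissues and the other two low, and neither tissue passed alone. The difference was -2.05 (SE 0.30, adjusted p = 0.0201), lost without NFVCT27, NFVCT38, NF17, NF32 or NF152 (highest adjusted p = 0.175). It was also lost with limma-voom and without the animal block (highest adjusted p = 1). Of 15 tested B and plasma cell genes, edgeR, DESeq2 and limma-voom called 0. At an unadjusted p under 0.05, 1 was more negative, where 2.37% of all genes were. In control NF152 the ileal library stood apart for B cell markers, with 41.4 CPM of Ms4a1 against 1.34 or less in the other 7 ileal libraries, and its part in these values was not tested.

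**Figure D5:**
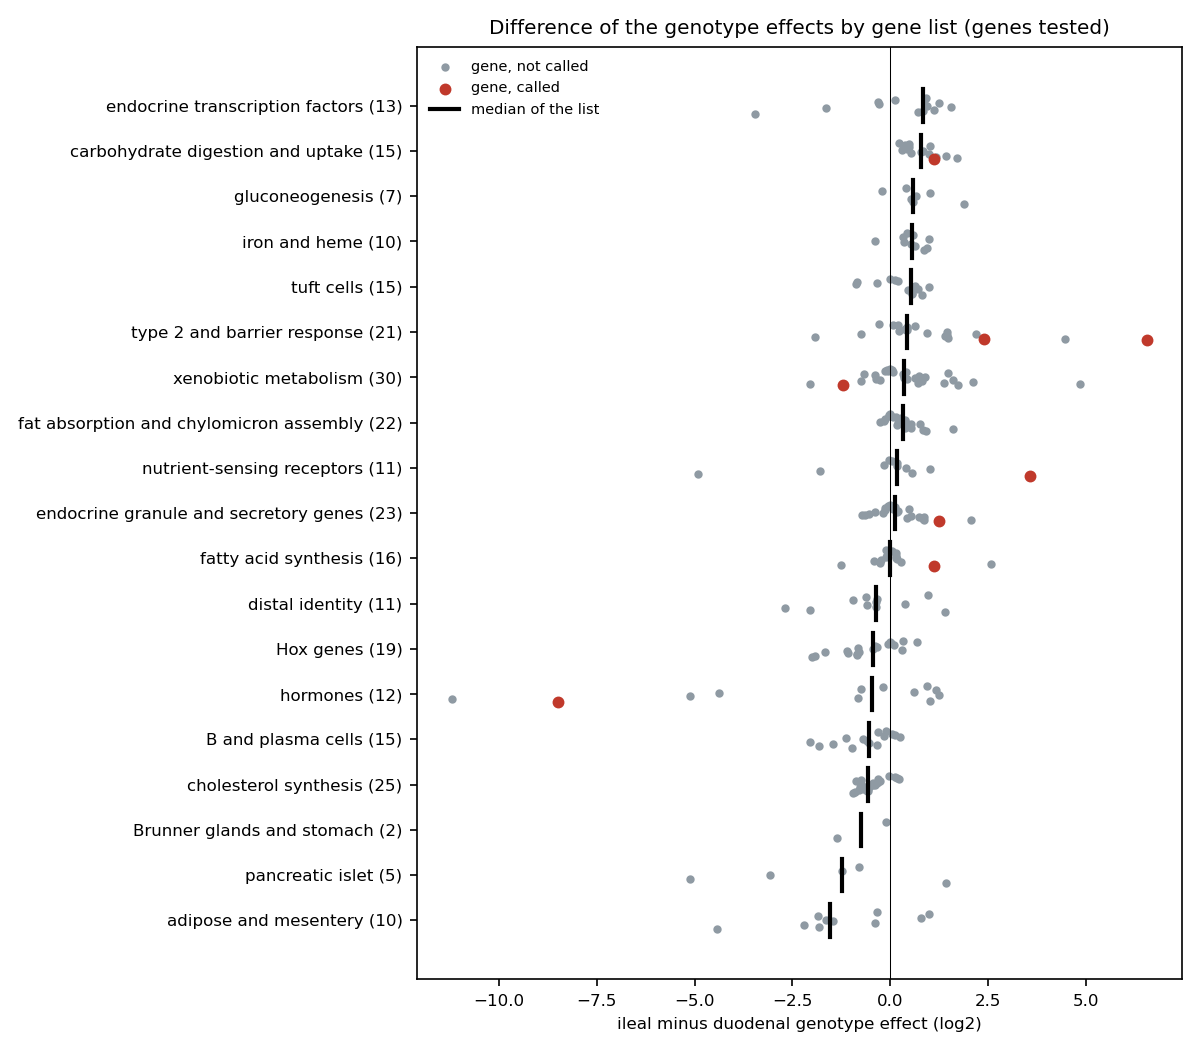
Ileal minus duodenal genotype effect (log2) of each tested gene, grouped by list, with called genes in red and the list's median as a black bar. Medians run from positive for endocrine factors and carbohydrate genes at the top to negative for islet and adipose genes at the bottom. Values beyond 4 log2 units on either side are mostly of genes with almost no counts in a group and depend on the prior count. Within that range, Neurog3 and Lmx1a, with 0 counts in both mutant groups, have no usable estimate. Pax6 and Neurod1 rest on 1 or 2 counts in each mutant group. The median of the endocrine factors depends partly on these genes.

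Iron and tuft cell genes also leaned positive without a call by edgeR, DESeq2 or limma-voom. For the 10 iron genes the median difference was 0.55 and 9 were above 0. At an unadjusted p under 0.05, 3 were more positive, where 2.94% of all genes were. Slc40a1, the iron exporter ferroportin, had 103, 135, 97 and 146 CPM in ileum of mutants, against 128, 71, 81.4 and 109 CPM in controls. In duodenum it had 563, 457, 347 and 447 CPM in mutants, against 597, 1040, 456 and 799 CPM in controls. Both pairs of groups overlapped (effects 0.28 and -0.68, difference 0.94, SE 0.33, adjusted p = 0.74). For the 15 tuft cell genes, which mark the chemosensory cells of the epithelium, the median difference was 0.54 and 4 were more positive at an unadjusted p under 0.05. Within the tissues 7 were called higher in mutant ileum (1.77% of all genes were) and 0 in mutant duodenum (0.0952%). Trpm5, the cation channel of their taste signalling, had effects of 0.94 in ileum (adjusted p = 0.00624) and 0.37 in duodenum (adjusted p = 0.53), without a called difference (0.56, SE 0.18, adjusted p = 0.627).

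Immune lists with a negative median effect in both tissues had no gene with a called difference. For T, NK and intraepithelial lymphocyte genes the median effect was -1.04 in ileum and -1.18 in duodenum, over 25 genes in each, of which 5 were called lower in ileum and 5 in duodenum. Their median difference was 0.14 over 26 genes. For 34 genes of the interferon gamma response and MHC class I it was -1 in ileum and -0.89 in duodenum, with 10 called lower in ileum and 5 in duodenum, and the median difference was 0.03. Both lists had 0 calls of a difference by edgeR, DESeq2 and limma-voom. At an unadjusted p under 0.05, 1 gene of each list was more negative, where 2.37% of all genes were. Of all genes tested within a tissue, 1.51% were called lower in mutant ileum and 0.299% in mutant duodenum. Among regional genes, Slc9a3, the sodium-hydrogen exchanger of the brush border, had effects of 1.65 in ileum (adjusted p = 0.0521) and 0.22 in duodenum. Its difference of 1.39 (SE 0.25) was not called (adjusted p = 0.0836). Of the 11 genes of the distal identity list 8 were below 0, and of 19 Hox genes 14, against 7700 of all 15882 genes tested. In both lists edgeR called 0. At an unadjusted p under 0.05, 1 gene of the distal list was more positive and 1 more negative. Of the Hox genes 0 were more positive and 1 more negative, where 2.94% and 2.37% of all genes were. DESeq2 called 1 gene of the distal list each way, Slc9a3 more positive and Ces1g more negative, and 0 Hox genes. Both genes were nonetheless higher in control duodenum than in control ileum. Mean CPM was 229 against 57.6 for Slc9a3 and 22.3 against 9.81 for Ces1g.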

How the data were processed

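RNA was measured in 16 libraries, 4 in each of 4 groups, grouped by the genotype and tissue in the labels. Per the labels' protocols, libraries were stranded, from total RNA depleted of ribosomal RNA, with PCR amplification, and molecular identifiers are not mentioned, so intervals cover counting error only. The genome build mm39 and the tools STAR 2.5.3a, HTSeq 0.6.1p1, Bowtie2 2.2.8, cutadapt 1.10 and bcl2fastq 2.20.0.422 come from the submitters' processing notes. How strand was set, and which annotation was counted, is not given in the sources used here. The authors, per the file headers, deposited raw read counts per Ensembl gene. Of 55359 identifiers, 52083 matched a symbol, with 98.3% of counts.

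Here edgeR 4.0.16 (R 4.3.3) scaled the counts by TMM, left out low genes by its default filter, and ran the quasi-likelihood F test with Benjamini-Hochberg adjustment over all genes tested. The design held animal, tissue and genotype by tissue. Effects within a tissue were fitted on 8 libraries. CPM use the TMM factors. The prior count of the fits was 0.125, and the main text gives no fitted change of a single gene with at most 3 counts in a group. Figures, list medians and the ranges of genes that changed sign include such genes. The animal number in the labels marks the mouse that gave both tissues: the correlation of a mouse's deviations from its group means between its tissues was 0.127 to 0.327 in the 8 mice. In NFVCT190 (0.145) and NF32 (0.191) it was below their highest correlation with another mouse, 0.218. DESeq2 1.42.0 and limma 3.58.1 (voom) were alternatives, beside other scaling, no filter, no block, scores of other tissues as covariates and leaving out animals.

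Named genes were drawn from up to 12 called genes of smallest p each way with a mean CPM of at least 1. Immunoglobulin segments and predicted genes were left out. The hormone and transcription factor lists with Chga and Chgb were also drawn on. So were the 3 members lowest in p from every other list that had a call or a median difference beyond 0.3. Not every gene that this rule gives is described in the text. Slc5a1 and Khk were added for their promoters. The comparison and the lists were chosen with earlier results of these data known. Scripts were tested on simulated data. One gene of the lists is not reported by name here.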

Additional observations from a re-analysis of the deposited data

Results flagged for a closer look

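For 16 genes the genotype effect differed between ileum and duodenum by the test of the difference itself (edgeR, adjusted over 15882 genes). The adjusted p was 2.97e-05 for Gcg, 0.00163 for Pla2g4c, 0.00203 for Trpa1, 0.00801 for Cd55 and 0.0109 for Ces1f. It was 0.0116 for each of Dao, Egln3, Slc16a6, Reg4 and Mgat4c, and 0.0123 for C4bp. It was 0.02 for Ighg1, 0.022 for Pcsk1, 0.0252 for Sprr2a3, 0.0318 for B4galt5 and 0.0374 for Mlxipl. In each of these genes the 4 mutants' own ileum minus duodenum values lay all above, or all below, those of the 4 controls, as was so for 3.67% of all genes tested.

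Single animals stood apart from their group in 5 of the 96 groups of 4 examined, and chance gives about 1 in 20. Mutant NFVCT190 alone had a Gcg count in mutant ileum, at 0.0536 CPM. Mutant NFVCT27 had 6.13 CPM of Ighg1 in duodenum, above the other mutants. Control NF17 had 38.6 CPM of Dao in duodenum, above the other controls, and control NF29 had the lowest ileum minus duodenum value of Dao among controls, at -3.22 log2 units. Control NF17 also had the highest ileum minus duodenum value of Pla2g4c among controls, at 4.38 log2 units, still below the lowest mutant at 8.6.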

How the results depend on the processing

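All 16 called genes kept their direction under the 18 other settings. Pla2g4c and Trpa1 were called under all of them, and Gcg and Cd55 with every animal left out in turn. The number called was 230 (116 more positive and 114 more negative in ileum) with no filter on low counts, 72 (46 and 26) with DESeq2 and 15 with limma-voom, 2 of them more negative and 14 among the 16. Without the replicate block that pairs an animal's tissues it was 7 (6 and 1), 6 of them among the 16: Pla2g4c, Trpa1, Dao, Slc16a6, Reg4 and Mgat4c. Without mutant NFVCT190 and control NF17, which have the highest acinar share of their genotypes (a setting chosen after seeing the data, as was the islet score), it was 9, with 6 more positive. Leaving out 1 animal gave 6 to 22 calls, 4 to 12 more positive and 1 to 10 more negative. Within tissues, no filter gave 1096 calls in ileum and 169 in duodenum, DESeq2 875 and 310, and leaving out 1 library 272 to 472 and 27 to 61.

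No gene that changed sign was called there or in the report. The fitted differences of Gip, Ghrl, Pax6 and Lep rest on 3 or fewer counts in a group, depend on the prior count and are no estimate of size. Leaving out 1 animal in turn gave -0.0746 to 1.91 for Rfx6, -0.575 to 0.0649 for Etv1, -1.32 to 0.159 for Gip, -1.34 to 3.66 for Pax6, -0.545 to 0.047 for Myt1, -2.39 to 1.9 for Ghrl, -0.227 to 0.318 for Foxa1, -0.431 to 0.314 for Tff2 and -5.94 to 0.424 for Lep. Without both animals of highest acinar share Myt1 was at 0.143, Ghrl 1.97 and Tff2 0.163, and with the acinar score Tff2 at 0.0799. DESeq2 gave Gip 0.295 and Ghrl 0.614, limma-voom Gip 1.07 and Ghrl 1.96, and no block Ghrl 0.721. The cause was not tested.

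With 4 animals a group and a median SE of 0.238 log2 units, small differences were not detectable for most genes.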
